A study of Mus musculus with 21 samples.

Results

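The genes of cholesterol synthesis and transport were followed in the mouse hippocampus by polyA RNA sequencing. The set held 30 genes chosen by symbol, and 30 of 30 were found among the 24411 genes listed in each of the deposited tables. Of these, 18 encode enzymes of the mevalonate and sterol steps, 4 control the transcription of those enzymes, and 8 move, store or remove cholesterol. Both experiments used male WT mice that were perfused before the hippocampus of 1 hemisphere was taken. In the transfer experiment, B6.SJL-Ptprca Pepcb/BoyJ recipients aged 4 months were given CD8a antibody on days -11 and -7, in both groups alike, so that their resident CD8+ T cells were depleted. They then received, through the tail vein, CD8+ T cells isolated from the spleen and blood of C57BL/6J donors. The donors were 22 to 28 months old (aged T recipients, n = 5) or 3 to 4 months old (young T recipients, n = 6). The other experiment used old mice, of 22 to 24 months, which were given every 4 days either the CD8a antibody (n = 5) or rat IgG2b as isotype control (n = 5). The 2 tables were normalized separately, so values were compared only within an experiment.

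The brain makes almost all of its own cholesterol, because lipoproteins do not cross the blood-brain barrier. Oligodendrocytes use much of it for myelin, and astrocytes supply neurons through lipoprotein particles. When sterol in the endoplasmic reticulum is low, SCAP escorts SREBP2 to the Golgi, where it is cleaved into an active transcription factor for the synthesis enzymes. INSIG1 holds SCAP back when sterol is plentiful. Neurons dispose of cholesterol by hydroxylation with CYP46A1.

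Read totals were 12361933 to 15055422 for aged T libraries and 11232442 to 14911138 for young T libraries. They were 9957822 to 12136146 with CD8a antibody and 11103024 to 14375029 with IgG2b. All 30 genes passed the filter, a mean of at least 10 normalized counts, with a lowest group mean of 111 (Tm7sf2 with IgG2b). A normalized count is the number of reads of a gene after scaling by the library's own size factor. Markers of the hippocampus were present in every group, and their summed normalized counts lay between 5574 and 7839 in aged T and between 4722 and 8747 in young T libraries, between 3973 and 7369 with CD8a antibody and between 4634 and 6086 with IgG2b. Between aged T and young T libraries 3 of the 6 were higher and 3 lower (median log2 difference 0.01). Between CD8a antibody and IgG2b 6 of 6 were higher, with a median of 0.28. Of the 6, 1 had an unadjusted limma p under 0.05, against 8.47% of all genes, and 0 were called, against 0.00717%. The 5 CD8 T cell markers gave 4 reads in all aged T libraries together, 15 in young T, 25 with CD8a antibody and 22 with IgG2b. CD8a antibody replicate 5 stood apart from its group in several of the genes below, and the log2 differences of the depletion experiment are given with it and, further below or beside them, without it. Across genes, replicate 2 stood off as well. Its chi-square divided by degrees of freedom was 36.8 to 39.8 against replicates 1, 3 and 4, which gave 7.46 to 9.72 among themselves. For replicate 5 against replicates 1, 3 and 4 it was 42 to 49.5. Log2 differences without replicate 2 are not given singly. Among the genes given below by library, it was the highest antibody library for Npc2, Lcat, Idi1 and Srebf1. With any 1 library of the experiment left out, the log2 difference ran from 0.24 to 0.36 for Npc2 and from 0.24 to 0.39 for Lcat. It ran from 0.15 to 0.31 for Idi1 and from 0.085 to 0.17 for Srebf1.

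The upstream sequence of the genes was read from RefSeq (GRCm38.p6), which held an entry for 24 of the 30, and the 250 bases before each transcription start were searched on both strands. The motifs were CCAAT, the box bound by NF-Y, and TCACNCCAC, a form of the sterol regulatory element bound by SREBP, and neither motif contains the other. A CCAAT lay in 21 of 24 genes (87.5%), against 37.5% of 27025 genes with an entry and 40.2% of the genes tested in the transfer experiment that had one. Of the 15 synthesis genes with an entry 14 held it (93.3%), and in 19 of the 24 genes a whole copy lay within 150 bases of the start. TCACNCCAC lay in 1 of 24 (4.17%), Hmgcs1, against 1.22% of all genes with an entry. These are matches of letters and say nothing about occupancy, and the share over all genes includes noncoding genes. The windows below are given for Hmgcs1, the gene with both motifs; for Idi1 and Cyp51, whose levels varied together in both experiments; and for Npc2, which had the smallest p of the set in the depletion experiment. Each is written 5′ to 3′ on the gene's own strand and ends at the base before the start, with matches in capitals (ATTGG is CCAAT on the other strand).
Hmgcs1 (chr13:119690101-119690350, plus strand): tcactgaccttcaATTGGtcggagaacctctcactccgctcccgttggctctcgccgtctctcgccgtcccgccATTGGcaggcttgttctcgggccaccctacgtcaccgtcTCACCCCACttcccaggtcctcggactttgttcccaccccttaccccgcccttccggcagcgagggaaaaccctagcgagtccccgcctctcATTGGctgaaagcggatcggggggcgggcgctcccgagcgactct
Idi1 (chr13:8885356-8885605, plus strand): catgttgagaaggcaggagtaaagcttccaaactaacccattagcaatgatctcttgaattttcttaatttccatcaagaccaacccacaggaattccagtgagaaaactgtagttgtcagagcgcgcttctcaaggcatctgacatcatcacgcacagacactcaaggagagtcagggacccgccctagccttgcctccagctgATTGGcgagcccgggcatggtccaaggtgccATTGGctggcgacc
Cyp51 (chr5:4104698-4104947, minus strand): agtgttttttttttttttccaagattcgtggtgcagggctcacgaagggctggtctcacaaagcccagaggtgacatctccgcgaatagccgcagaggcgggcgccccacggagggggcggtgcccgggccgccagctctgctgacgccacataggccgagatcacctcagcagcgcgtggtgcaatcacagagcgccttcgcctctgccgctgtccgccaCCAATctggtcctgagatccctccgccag
Npc2 (chr12:84773113-84773362, minus strand): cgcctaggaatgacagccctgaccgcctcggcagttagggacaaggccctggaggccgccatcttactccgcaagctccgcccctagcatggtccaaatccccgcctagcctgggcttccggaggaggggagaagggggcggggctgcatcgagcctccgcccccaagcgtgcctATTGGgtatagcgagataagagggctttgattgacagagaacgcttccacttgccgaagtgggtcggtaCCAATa
Hmgcs1 held CCAAT on the other strand at -237 to -233, -176 to -172 and -45 to -41 from the start and TCACNCCAC at -137 to -129. Idi1 held CCAAT on the other strand, at -45 to -41 and -14 to -10. Cyp51 held it at -29 to -25. Npc2 held it at -75 to -71 on the other strand and at -6 to -2.

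Levels were compared between genes as normalized counts per kb of exon, with the union of all annotated exons as the length. That length can exceed the length of the transcript present, so the order given here holds for these lengths only. Hmgcs1, which joins acetyl groups into the precursor of mevalonate, was the highest of the 30 in every group, at 1296 in aged T mice, 1350.5 in young T mice, 1059.5 with CD8a antibody and 1007 with IgG2b. Cyp46a1 came next, at 787 in aged T mice, 818 in young T mice, 756 with CD8a antibody and 772 with IgG2b. Soat1, which esterifies cholesterol for storage, was the lowest, at 33.7 in aged T mice, 32.8 in young T mice, 22.4 with CD8a antibody and 24.2 with IgG2b. Among replicates, the regulator Srebf2 was among the steadiest genes, with a coefficient of variation of 3.08% in aged T mice, 6.91% in young T mice, 6.16% with CD8a antibody and 5.27% with IgG2b. Tm7sf2, a sterol reductase, varied by 19.4% in aged T mice, 25.4% in young T mice, 30.5% with CD8a antibody and 36.1% with IgG2b.

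The transfer experiment set young recipients of aged CD8+ T cells against recipients of young ones. No gene of the set passed the test between aged T and young T recipients: 0 of 30 reached an adjusted p of 0.05 in limma, against 0% of the 14162 genes tested, and 0 of 30 had an unadjusted p under 0.05, against 8.25% of all genes. In 0 of 30 were the libraries of the groups fully apart (0.699% of all genes). Adjusted p-values ran from 0.656 to 0.986 in limma, and the smallest was 0.611 in edgeR's quasi-likelihood test, 0.720 in DESeq2 and 0.657 in limma-voom. The mean was higher in aged T recipients for 16 genes and lower for 14, with a median log2 difference of 0.01, against -0.00 over all genes, of which 49% were higher. The intervals bound the size of a difference. For 30 of 30 genes the 95% interval lay within 1.5-fold either way, against 72.8% of all genes and 89.5% of genes averaging at least 100 normalized counts; the intervals are per gene and not adjusted over the set. The p-values measure only the spread between these separately named samples.

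**Figure D1:**
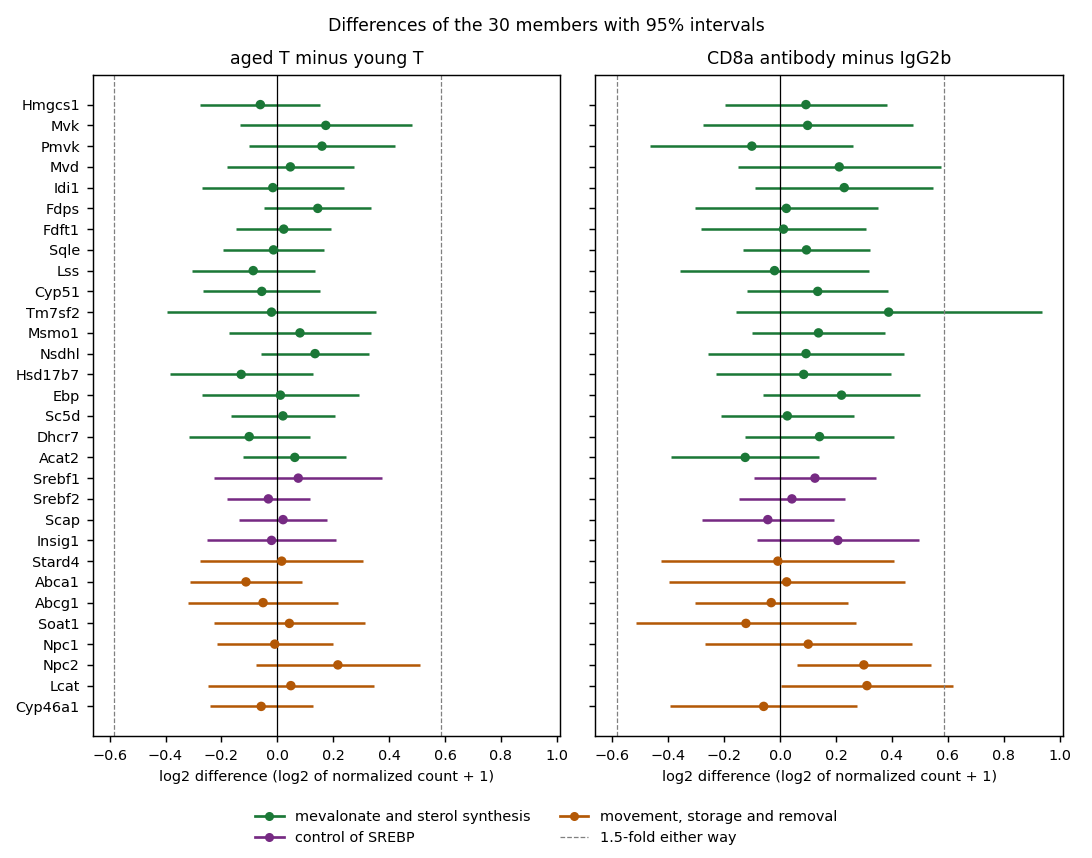
Log2 differences (log2 of normalized count + 1) of the 30 genes with 95% intervals from limma, aged T minus young T on the left and CD8a antibody minus IgG2b on the right; colours mark the roles and dashed lines 1.5-fold either way. All 30 intervals on the left lie between the dashed lines, and on the right those of Tm7sf2 and Lcat pass the upper line.

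Of the 18 synthesis genes, 10 were higher and 8 lower in aged T recipients, with a median log2 difference of 0.02. The smallest p belonged to Fdps, which makes farnesyl pyrophosphate, the branch point towards sterols and isoprenoids. Fdps had 808, 997, 805, 789.9 and 1003 normalized counts in aged T recipients, against a lowest value of 723, a median of 791 and a highest value of 865 in young T recipients. Replicates 2 and 5 of the aged T recipients were the highest of all 11 libraries and the other 3 lay within the young T range, so the groups overlapped, and the log2 difference was 0.14 (SE 0.09, limma adjusted p = 0.656). Nsdhl, a sterol dehydrogenase that acts in removing methyl groups from the sterol ring, had 339, 331, 298, 304 and 355 normalized counts in aged T recipients, against a lowest value of 259, a median of 299 and a highest value of 319 in young T recipients. Its groups overlapped as well, and its log2 difference was 0.13 (SE 0.09, limma adjusted p = 0.672). Pmvk, the second kinase of the mevalonate steps, had 360.3, 422, 460.4, 333 and 534 normalized counts in aged T recipients, against a lowest value of 314, a median of 377 and a highest value of 438 in young T recipients. Here 2 aged T libraries lay above every young T library and the rest lay inside their range, for a difference in log2 of 0.16 (SE 0.12, limma adjusted p = 0.705).

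Hmgcs1 and Sqle, squalene epoxidase, are both strongly sterol-regulated steps. Hmgcs1 had 4685, 4599.6, 5244, 4280.2 and 3745 normalized counts in aged T recipients, against a lowest value of 4176, a median of 4557 and a highest value of 5546 in young T recipients. The lowest and the second highest library of the experiment were both aged T, and the log2 difference was -0.06 (SE 0.10, limma adjusted p = 0.879). Sqle had 999, 1055, 1033, 859.9 and 1017 normalized counts in aged T recipients, against a lowest value of 896, a median of 988 and a highest value of 1125 in young T recipients. Aged T replicate 4 was the lowest library, the other 4 lay inside the young T range, and the log2 difference was -0.01 (SE 0.09, limma adjusted p = 0.973), with a 95% interval of 0.873 to 1.12 as a fold.

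The remaining synthesis genes had log2 differences from -0.13 to 0.17. Of the early enzymes, Mvk, mevalonate kinase, had a log2 difference of 0.17 (SE 0.14), Mvd, mevalonate decarboxylase, one of 0.05 (SE 0.11), and Idi1, the isopentenyl isomerase, one of -0.02 (SE 0.12). Acat2, which joins acetyl groups in the cytosol, had a log2 difference of 0.06 (SE 0.09). Of the enzymes that build and close the sterol ring, Fdft1, squalene synthase, had a log2 difference of 0.02 (SE 0.08) and Lss, lanosterol synthase, one of -0.09 (SE 0.10). Among those that trim lanosterol to cholesterol, the log2 difference was -0.06 (SE 0.10) for the demethylase Cyp51, 0.08 (SE 0.12) for the methyl oxidase Msmo1 and -0.02 (SE 0.18) for Tm7sf2. It was -0.13 (SE 0.12) for the ketoreductase Hsd17b7, the lowest of the set, 0.01 (SE 0.13) for the isomerase Ebp, 0.02 (SE 0.09) for the desaturase Sc5d and -0.10 (SE 0.10) for the final reductase Dhcr7.

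Of the genes that control synthesis, Srebf1, which encodes the SREBP1 factors of fatty acid and sterol genes, had 734, 1039, 897, 621 and 1016 normalized counts in aged T recipients, against a lowest value of 683, a median of 769 and a highest value of 1078 in young T recipients. The highest library was from a young T recipient and the lowest from an aged T recipient, and the log2 difference was 0.07 (SE 0.14, limma adjusted p = 0.897). Srebf2, which encodes SREBP2, had 2734, 2955, 2833, 2775 and 2772 normalized counts in aged T recipients, against a lowest value of 2624, a median of 2888 and a highest value of 3200.1 in young T recipients. All 5 aged T libraries lay inside the young T range, and the log2 difference was -0.03 (SE 0.07, limma adjusted p = 0.916). Scap and Insig1 had log2 differences of 0.02 (SE 0.07) and -0.02 (SE 0.11).

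Of the genes that move or remove cholesterol, Npc2, the lysosomal protein that hands cholesterol to NPC1, had the largest difference of the set. Npc2 had 1323, 963, 1343, 828 and 1349 normalized counts in aged T recipients, against a lowest value of 819.9, a median of 1026 and a highest value of 1116 in young T recipients. Replicates 1, 3 and 5 of the aged T recipients exceeded every young T library, while replicates 2 and 4 lay inside the young T range, and the log2 difference was 0.22 (SE 0.14, limma adjusted p = 0.658). With each of the 11 libraries left out in turn it ran from 0.16 to 0.33. The highest value came without aged T replicate 4, with an unadjusted p under 0.05 and an adjusted p of 0.354 in limma. No other library left out gave Npc2 an unadjusted limma p under 0.05. Abca1, the pump that loads cholesterol onto lipoproteins, had 603, 647, 627, 581 and 496 normalized counts in aged T recipients, against a lowest value of 564, a median of 644 and a highest value of 720.0 in young T recipients. Only aged T replicate 5 lay below the young T range, and the log2 difference was -0.11 (SE 0.09, limma adjusted p = 0.729). Cyp46a1 had 1626, 1701, 1386, 1767 and 1858 normalized counts in aged T recipients, against a lowest value of 1525, a median of 1733 and a highest value of 1880.5 in young T recipients. The groups overlapped, with a difference in log2 of -0.06 (SE 0.09, limma adjusted p = 0.859). The other genes had log2 differences of 0.02 (SE 0.14) for the sterol carrier Stard4, -0.05 (SE 0.13) for the efflux pump Abcg1 and 0.04 (SE 0.13) for Soat1. They were -0.01 (SE 0.10) for the lysosomal transporter Npc1 and 0.05 (SE 0.14) for Lcat, which esterifies cholesterol on lipoproteins.

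**Figure D2:**
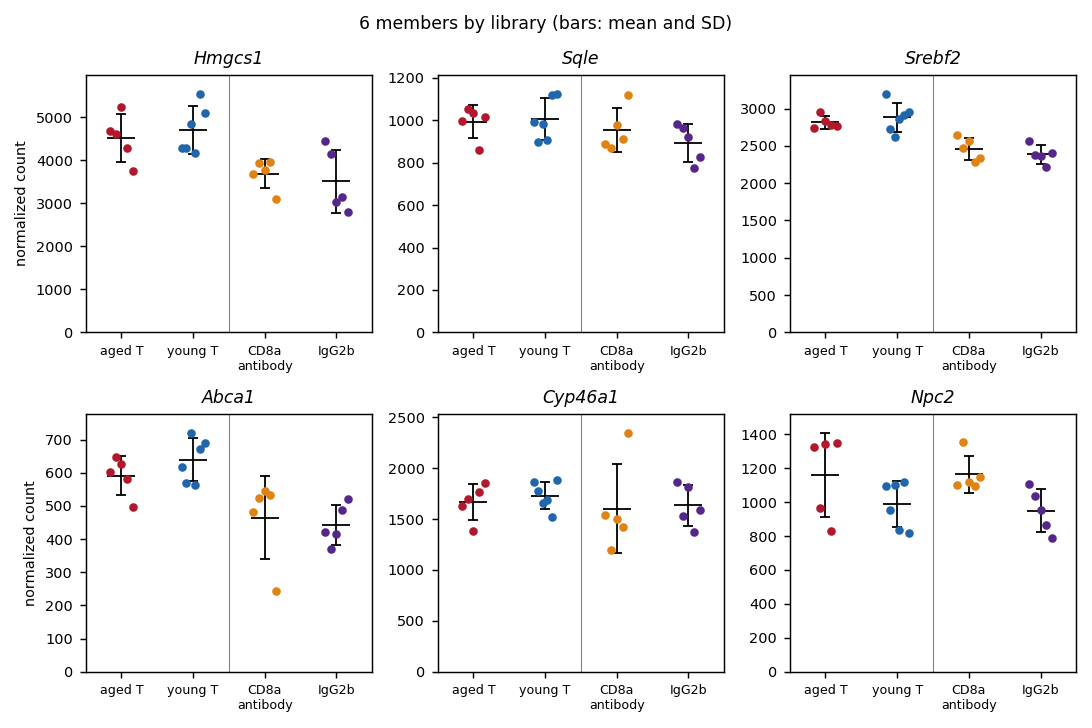
Normalized counts of Hmgcs1, Sqle, Srebf2, Abca1, Cyp46a1 and Npc2, 1 point per library, in aged T and young T recipients and with CD8a antibody and IgG2b; bars give the mean and SD. The groups of each experiment overlap in all 6 genes, and 1 CD8a antibody library lies far below the rest in Abca1 (244) and above them in Cyp46a1 (2347).

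The depletion experiment set aged mice given CD8a antibody against aged mice given IgG2b. Again no gene of the set passed the test: 0 of 30 were called in limma, against 0.00717% of the 13939 genes tested (1 gene), and 0 of 30 in DESeq2, against 0.656% (92 genes of 14024). The smallest adjusted p of the set was 0.457 in limma, 0.436 in edgeR's quasi-likelihood test, 0.310 in DESeq2 and 0.465 in limma-voom. An unadjusted limma p under 0.05 was found for 2 of 30, Npc2 and Lcat, against 8.47% of all genes. In 0 of 30 were the groups fully apart (2.05% of all genes). With CD8a antibody 22 genes had a higher mean and 8 a lower one, with a median log2 difference of 0.09, against -0.00 over all genes, of which 49.6% were higher. The 95% interval lay within 1.5-fold for 28 of 30, against 64.2% of all genes and 80.6% of genes averaging at least 100 normalized counts, and the exceptions, Tm7sf2 and Lcat, reached up to 1.91-fold and 1.53-fold.

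Of the 18 synthesis genes, 15 were higher and 3 lower with CD8a antibody, with a median log2 difference of 0.09 and 0 passing the test. The count of higher genes ran from 12 to 16 when 1 library at a time was left out, and the lowest came without CD8a antibody replicate 5. Of the myelin markers 14 of 14 were higher in the same comparison, with a median log2 difference of 0.41, and the 6 hippocampus markers were higher as well (median 0.28); the part of either in the synthesis values was not tested. In bulk tissue, fewer cells of a type and less RNA per cell cannot be told apart. Ebp, a sterol isomerase, had the smallest p, with 175, 140.4, 169.6, 181 and 194 normalized counts with CD8a antibody, against 155, 162, 127, 139 and 154 with IgG2b. CD8a antibody replicate 2 lay inside the IgG2b range and the other 4 above it, for a difference in log2 of 0.22 (SE 0.13, limma adjusted p = 0.681) and of 0.17 without replicate 5. Idi1 had 769, 1152, 1002, 1044 and 760.5 normalized counts with CD8a antibody, against 1005, 892, 667, 790.5 and 673 with IgG2b. Replicates 1 and 5 with the antibody lay inside the IgG2b range, replicates 2 and 4 lay above it, and replicate 3 was just under its top, for a difference in log2 of 0.23 (SE 0.15, limma adjusted p = 0.705) and of 0.30 without replicate 5. Tm7sf2 had 160.5, 142, 112, 96.1 and 208 normalized counts with CD8a antibody, against 131, 168, 107, 66.2 and 83.7 with IgG2b. Both groups spread widely and overlapped, and its log2 difference was 0.39 (SE 0.26, limma adjusted p = 0.71). That was the largest of the set, but without CD8a antibody replicate 5, its highest library, it was 0.24, below those of Npc2 and Idi1 (0.30 each).

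Hmgcs1 had 3672, 3931, 3769, 3964 and 3109 normalized counts with CD8a antibody, against 4436, 4134, 3028, 3136 and 2797 with IgG2b. The 2 highest libraries were IgG2b, and the log2 difference was 0.09 (SE 0.14, limma adjusted p = 0.887), or 0.15 without CD8a antibody replicate 5, its lowest antibody library. Sqle had 889, 869, 979.6, 911 and 1120.2 normalized counts with CD8a antibody, against 981, 964, 919.6, 775 and 827 with IgG2b. Only CD8a antibody replicate 5 exceeded the IgG2b range, and the log2 difference was 0.09 (SE 0.11, limma adjusted p = 0.839) with it and 0.034 without it. Among the other early enzymes the log2 difference was 0.10 (SE 0.18) for Mvk, -0.10 (SE 0.17) for Pmvk, 0.21 (SE 0.17) for Mvd, 0.02 (SE 0.15) for Fdps and -0.13 (SE 0.12) for Acat2. It was 0.01 (SE 0.14) for Fdft1 and -0.02 (SE 0.16) for Lss. For the later enzymes it was 0.13 (SE 0.12) for Cyp51, 0.14 (SE 0.11) for Msmo1, 0.09 (SE 0.16) for Nsdhl, 0.08 (SE 0.15) for Hsd17b7, 0.03 (SE 0.11) for Sc5d and 0.14 (SE 0.13) for Dhcr7. Several of these moved by more than 1.5 times without CD8a antibody replicate 5. The log2 difference was then -0.25 for Pmvk, 0.092 for Mvd, -0.050 for Mvk, -0.13 for Fdps, -0.22 for Acat2, -0.080 for Fdft1 and 0.11 for Lss. Among the later enzymes it was 0.19 for Cyp51, 0.096 for Msmo1, -0.0022 for Nsdhl, 0.22 for Hsd17b7, 0.078 for Sc5d and 0.18 for Dhcr7.

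Of the control genes, Insig1 had 937, 986, 1222, 1076 and 1008 normalized counts with CD8a antibody, against 1179, 1061, 826, 752 and 769.7 with IgG2b. The IgG2b libraries fell into 2 high and 3 low ones, the antibody libraries lay between their median and slightly above their top, and the log2 difference was 0.21 (SE 0.14, limma adjusted p = 0.71). Srebf1 had 836, 864, 773, 728 and 684 normalized counts with CD8a antibody, against 697, 674, 689, 686 and 814 with IgG2b. Replicates 1 and 2 with the antibody and IgG2b replicate 5 were the highest libraries, and the log2 difference was 0.12 (SE 0.10, limma adjusted p = 0.773). Srebf2 had 2642, 2471, 2564, 2282 and 2332 normalized counts with CD8a antibody, against 2569.8, 2378, 2362, 2217 and 2408 with IgG2b. The groups overlapped almost fully, with a difference in log2 of 0.04 (SE 0.09, limma adjusted p = 0.927). Scap had a log2 difference of -0.04 (SE 0.11). Without CD8a antibody replicate 5 the log2 differences were 0.22 for Insig1, 0.17 for Srebf1, 0.060 for Srebf2 and -0.092 for Scap.

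Of the genes that move or remove cholesterol, Npc2 had 1102, 1354, 1119, 1098 and 1149.6 normalized counts with CD8a antibody, against 1108, 1037, 951, 866 and 789 with IgG2b. Each antibody library exceeded the median of the IgG2b libraries, but IgG2b replicate 1 exceeded the lower antibody libraries, so the groups overlapped. The means were 1165 ± 108 with CD8a antibody and 950.1 ± 128 with IgG2b (SD, n = 5 each), and the log2 difference of 0.30 (SE 0.11, limma adjusted p = 0.457) did not pass adjustment. Lcat had 319.8, 390.0, 258, 282 and 358 normalized counts with CD8a antibody, against 223, 312, 287, 239.7 and 229.7 with IgG2b. Each antibody library again exceeded the median of the IgG2b libraries, within overlapping ranges, and the log2 difference was 0.31 (SE 0.14, limma adjusted p = 0.587), which did not pass adjustment either. The 9 microglia markers were all higher with CD8a antibody in the same libraries, with a median log2 difference of 0.36 and 0 called in limma. Of the 9, 6 had an unadjusted limma p under 0.05, against 8.47% of all genes. Their summed normalized counts were 7253 to 8801 with CD8a antibody and 6148 to 6875 with IgG2b, and none was at 0. Markers of other cells were higher too, 14 of 14 for myelin (median 0.41) and 7 of 7 for choroid plexus (0.53). Of the astrocyte markers 5 were higher and 4 lower (median 0.00), and of the neuron markers 2 and 6 (-0.12). The part of any of these cells in the Npc2 and Lcat values was not tested.

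Abca1 had 482, 523, 544, 532 and 244 normalized counts with CD8a antibody, against 422, 369.9, 414, 488 and 519.5 with IgG2b. Replicate 5 was the lowest of all 10 libraries and the other 4 antibody libraries lay above the IgG2b median. With it the log2 difference was 0.02 (SE 0.20, limma adjusted p = 0.985); without it the log2 difference was 0.24 (limma adjusted p = 0.359). Cyp46a1 had 1544, 1193, 1499.7, 1421 and 2347 normalized counts with CD8a antibody, against 1864, 1528, 1817, 1376 and 1589 with IgG2b. Replicate 5 was the highest of all 10 libraries, and the log2 difference was -0.06 (SE 0.16, limma adjusted p = 0.942) with it and -0.21 without it (limma adjusted p = 0.432). The other log2 differences were -0.01 (SE 0.19) for Stard4, -0.03 (SE 0.13) for Abcg1, -0.12 (SE 0.18) for Soat1 and 0.10 (SE 0.17) for Npc1. Without replicate 5 they were 0.12 for Stard4, 0.019 for Abcg1, -0.0035 for Soat1 and 0.27 for Npc1.

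The tally of small p-values depended on single libraries. Without CD8a antibody replicate 5, 6 of 30 genes had an unadjusted limma p under 0.05, against 13.2% of all genes, and 25 genes of the 13939 were called (0.179%), of which 0 belonged to the set. The 6 were Npc2 (log2 difference 0.30, adjusted p = 0.254), Npc1 (0.27, adjusted p = 0.330), Acat2 (-0.22, adjusted p = 0.340), Hsd17b7 (0.22, adjusted p = 0.347), Abca1 (0.24, adjusted p = 0.359) and Idi1 (0.30, adjusted p = 0.378). Lcat was no longer among them, at a log2 difference of 0.27 (limma adjusted p = 0.439). The tally was 0 of 30 without IgG2b replicate 5, 1 (Npc2) without CD8a antibody replicate 1 or IgG2b replicate 4, 3 without IgG2b replicate 2 (Npc2, Lcat and Tm7sf2) and 2 without any 1 of the other 5 libraries. Those 2 were Npc2 and Ebp without CD8a antibody replicate 2, and Npc2 and Insig1 without IgG2b replicate 1. They were Npc2 and Lcat without CD8a antibody replicate 3 or 4 or IgG2b replicate 3. Lcat thus stayed in the tally only without IgG2b replicate 2 or 3 or CD8a antibody replicate 3 or 4. Over all genes the share was 8.47% with every library and was otherwise counted only without CD8a antibody replicate 5. The other tallies therefore have no such share beside them. Whether they moved more than the share over all genes was not tested.

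**Figure D3:**
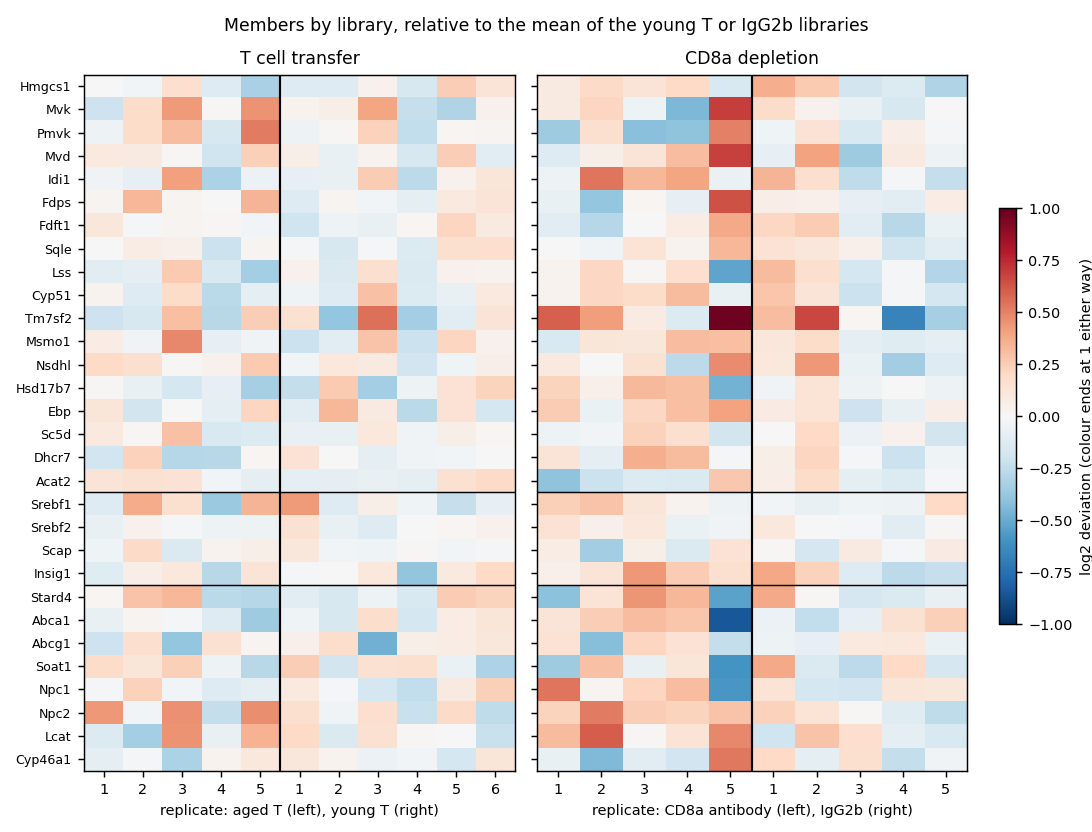
Log2 deviation of each gene in each library from the mean of the young T libraries (left) or the IgG2b libraries (right), with colours ending at 1 either way, aged T and CD8a antibody libraries placed left of the dividing line and horizontal lines parting synthesis, control and movement genes. CD8a antibody replicate 5 has both the deepest red (Tm7sf2) and the deepest blue (Abca1) of its panel.

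Although the groups did not separate, whole libraries ran high or low in the synthesis genes. Aged T replicate 4 lay above its group's median in 0 of 18 synthesis genes and below it in 16, and young T replicate 4 in 1 and 17. Over all genes tested, 40.8% lay above the group median in that aged T library and 49.2% in that young T library. IgG2b replicate 2 lay above its group's median in 17 of 18, while IgG2b replicate 3 lay above in 0 and below in 14, against 41.0% and 36.2% of all genes above in those libraries. A gene's median library lies neither above nor below in a group of 5, which puts the share over all genes under 50%. The summed synthesis counts overlapped between groups, at 14012 to 17457 in aged T libraries and 13916 to 16914 in young T libraries, and at 12646 to 14247 with CD8a antibody and 11547 to 14727 with IgG2b. Myelin marker sums were the lowest of their group in aged T replicate 4 (56687), young T replicate 4 (48527) and IgG2b replicate 3 (52770), each named above as low in synthesis genes. They were also the lowest of the group in CD8a antibody replicate 5 (55849), which had its group's highest summed synthesis count (14247) and 11 of 18 synthesis genes above the median. They were low in young T replicate 3 (54018), where 13 of 18 were above. CD8a antibody replicate 1 had its group's lowest summed synthesis count (12646), with 1 of 18 above the median, and its highest myelin sum (105930). IgG2b replicate 5 had the lowest summed synthesis count of its group (11547), with a myelin sum of 57213.

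Within groups the synthesis genes were more often positively than negatively correlated, with r above 0 in 112 of 153 pairs in the transfer experiment and 108 of 153 in the depletion experiment. Over their 153 pairs, the median Pearson r of deviations from the group means was 0.24 across the 11 transfer libraries and 0.33 across the 10 depletion libraries, against -0.00 in both over all pairs of genes tested. An r over 0.5 was found in 28.8% of pairs in the transfer experiment and 33.3% in the depletion experiment, against 10.8% and 15.3% of all pairs. All pairs include genes averaging as few as 10 normalized counts, weaker than any synthesis gene, and pairs of like level were not counted apart. Pairs share genes and libraries, so they are not independent. Idi1 and Cyp51, Idi1 and Lss, and Mvk and Pmvk were the 3 pairs with r of at least 0.8, rounded to 2 decimals, in both experiments, and they were picked after their values were seen. For each pair r was also computed without the 2 libraries farthest from the median in the first gene named. Leaving these out narrows that gene's range and can by itself lower r. For Idi1 and Cyp51, r was 0.903 and Spearman's rho 0.836 in the transfer experiment (permutation p = 0.00013 and 0.00677, adjusted over 153 pairs 0.0199 and 0.154). Without the 2 farthest libraries r was 0.82. In the depletion experiment r was 0.929 and rho 0.891 (permutation p = 0.00068 and 0.00133, adjusted 0.0347 and 0.0543), with r of 0.926 without the 2 farthest libraries and 0.912 without CD8a antibody replicate 5. Mvk and Pmvk, consecutive kinases, had r of 0.805 and rho of 0.745 in the transfer experiment (permutation p = 0.00668 and 0.019, adjusted 0.0923 and 0.223). There r was 0.731 without the 2 farthest libraries. In the depletion experiment Mvk and Pmvk had r of 0.806 and rho of 0.685 (permutation p = 0.0327 and 0.0752, adjusted 0.185 and 0.303). This r fell to 0.515 without CD8a antibody replicate 5 and 0.471 without the 2 farthest libraries, so its size depended on those. For Idi1 and Lss, r was 0.80 and rho 0.636 in the transfer experiment (permutation p = 0.0175 and 0.0502, adjusted 0.136 and 0.309). This r was 0.354 without the 2 farthest libraries, so its size depended on them. In the depletion experiment r was 0.847 and rho 0.855 (permutation p = 0.00183 and 0.00284, adjusted 0.035 and 0.0543), with r of 0.971 without the 2 farthest libraries and 0.859 without CD8a antibody replicate 5. In all, 4 pairs in the transfer experiment and 8 in the depletion experiment had an adjusted permutation p under 0.05 for r. Pairs of other genes were not tested by permutation. These counts therefore have no share over all pairs beside them and cannot be read as particular to the synthesis genes. For rho 0 of 153 pairs did in either experiment, with lowest adjusted values of 0.0627 and 0.0543.

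Other genes of the pathway, taken from lists of isoprenoid synthesis, sterol sensing, lipoprotein carriers and fatty acid synthesis, gave the same count of calls. Of 59 listed, 57 were in the tables and 54 were tested in each experiment. In aged T recipients 25 were higher and 29 lower than in young T recipients. Of the 54, 3 had an unadjusted limma p under 0.05 (all higher), against 8.25% of all genes, and 0 were called, against 0% of all genes. With CD8a antibody 30 were higher and 24 lower than with IgG2b. Of the 54, 4 had an unadjusted limma p under 0.05 (3 higher, 1 lower), against 8.47% of all genes, and 0 were called, against 0.00717%. The 14 fatty acid targets of SREBP1 had median log2 differences of 0.02 between aged T and young T recipients and 0.08 between CD8a antibody and IgG2b.

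Cell type markers were measured beside these genes in the same fits, and 0 of them were called in limma in either experiment. The 14 myelin markers were all higher in aged T than in young T recipients, with a median log2 difference of 0.35. Of the 14, 4 had an unadjusted limma p under 0.05, against 8.25% of all genes. Their sums were 56687 to 101880 in aged T libraries and 48527 to 84818 in young T libraries. The myelin markers were also all higher with CD8a antibody than with IgG2b, with a median of 0.41. Of the 14, 7 had an unadjusted limma p under 0.05, against 8.47% of all genes. Their sums were 55849 to 105930 with CD8a antibody and 52770 to 68290 with IgG2b. The 9 astrocyte markers had medians of -0.03 between aged T and young T recipients and 0.00 between CD8a antibody and IgG2b. The 8 neuron markers had medians of -0.06 and -0.12 in the same comparisons, and the 6 endothelial markers -0.19 and 0.17. The 9 microglia markers had a median of 0.13 between aged T and young T recipients, with 8 higher.

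Tissues next to the hippocampus varied more. The 7 choroid plexus markers summed to 2216 to 53496 in aged T and 2836 to 34081 in young T recipients, and to 811 to 31702 with CD8a antibody and 1997 to 26957 with IgG2b. Their median log2 differences were 0.32 between aged T and young T recipients and 0.53 between CD8a antibody and IgG2b. The ependymal markers had medians of 0.67 (6 tested) and 0.70 (5 of the 6 passed the filter) in the same comparisons. The 7 fibroblast markers had medians of -0.98 and 0.46. The part of these cells in the values of the cholesterol genes was not tested.

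**Figure D4:**
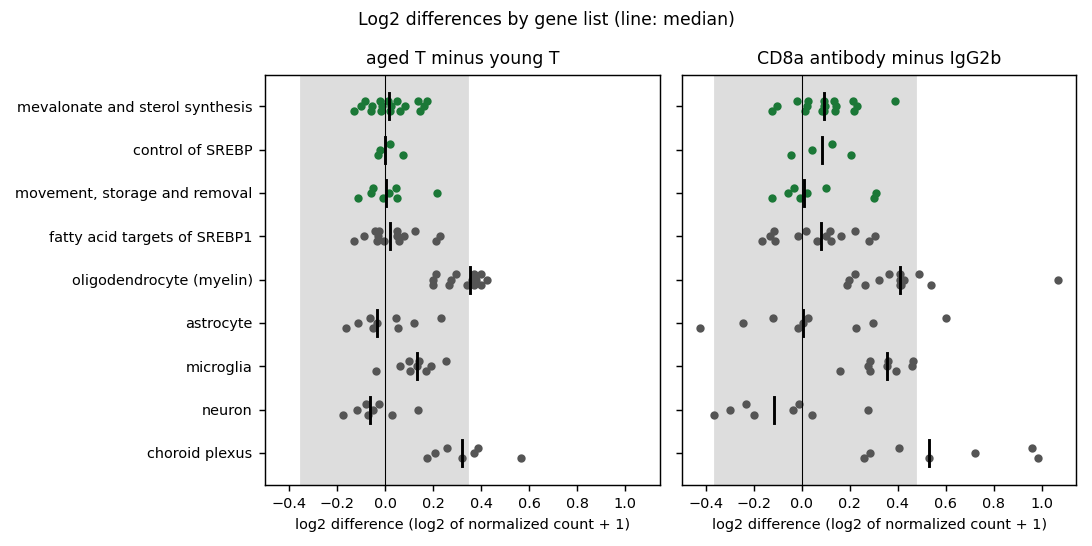
Log2 differences (log2 of normalized count + 1) by gene list, 1 point per gene with the list's median as a bar, aged T minus young T on the left and CD8a antibody minus IgG2b on the right; the grey band spans the middle 90% of all genes tested. The synthesis, control and movement genes lie around 0 inside the band. The myelin and choroid plexus markers all lie to the right of 0 in both panels. Of the 9 microglia markers 8 do so on the left and 9 on the right.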

How the data were processed

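Per the labels' protocols, polyA-enriched, strand-specific, paired-end libraries were made from hippocampal RNA. The submitters' processing notes name STAR, RSEM, DESeq2 and the mm10 build, without versions or roles, and no source used here names an annotation. Each of the deposited tables holds a normalized signal per gene and library, the read count divided by a library's size factor. It also holds the authors' own base mean, log2 fold change with its standard error, test score and p-values, which were not used for calls here. All values of a library were whole multiples of 1 step (relative tolerance 1e-06), so whole reads were recovered from the deposited signal. No column was left unmapped (0).

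Normalized counts call for a test on the log scale, so genes were tested with limma-trend (version 3.58.1, under R 4.3.3) after log2 transformation with a pseudocount of 1, a scale that understates changes of weak genes, where the mean was at least 10. The model was fitted over all genes of each experiment alone with no covariate and two-sided, with Benjamini-Hochberg adjustment and calls at 0.05. On the recovered reads, DESeq2 1.42.0, limma-voom and the quasi-likelihood test of edgeR 4.0.16 served as alternatives. The scripts were tested on simulated data. Correlations were tested with 100000 permutations of libraries, two-sided, and levels per kb used the union of exons in GENCODE M21. No library was a duplicate: within a group, chi-square divided by its degrees of freedom was 6.85 or more for each pair. Replicate numbers follow the order of the sample records.

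The genes and lists were chosen with earlier results of these data known. Values of every library are given for the 3 synthesis genes and the 2 genes of each other role with the smallest limma p, and for Hmgcs1, Sqle, Srebf2, Abca1 and Cyp46a1; for groups over 5 libraries the lowest, median and highest are given.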

Additional observations from a re-analysis of the deposited data

Results flagged for a closer look

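Each of the 30 genes was screened in each of the 4 groups for a highest or lowest library standing off from the rest of its group (Dixon's criterion at 95%). Of 120 gene and group combinations 9 met it, and chance alone gives about 1 in 20. With CD8a antibody, Abca1 was low in replicate 5, at 244 normalized counts against 482 to 544 in the other 4 libraries, and Npc2 was high in replicate 2, at 1354 against 1098 to 1149.6. With IgG2b, Srebf1 was high in replicate 5, at 814 against 674 to 697, and Hsd17b7 was high in replicate 2, at 348 against 305 to 316. In aged T recipients, Sqle was low in replicate 4, at 859.9 against 999 to 1055. Msmo1 was high in aged T replicate 3, at 1687 against 1141 to 1271, and Npc1 was high in aged T replicate 2, at 1367.5 against 1068 to 1149. In young T recipients, Scap was high in replicate 1, at 1439 against 1287 to 1339, and Abcg1 was low in replicate 3, at 838 against 1210.1 to 1321.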

How the results depend on the processing

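Across all alternatives 0 of 30 genes were called in either experiment: pseudocounts of 0.5 and 5, no mean filter, a mean of at least 50, TMM and upper quartile rescaling, edgeR, DESeq2, limma-voom and each library left out in turn. The count of all genes called in the depletion experiment was 1 in limma, 92 in DESeq2, 0 with no mean filter and 0 to 25 on leaving out 1 library, with 25 reached without CD8a antibody replicate 5. In the transfer experiment it was 0 throughout. The median log2 difference of the synthesis genes ran from -0.02 to 0.05 in the transfer experiment and from 0.06 to 0.14 in the depletion experiment on leaving out 1 library. Intervals within 1.5-fold numbered 29 to 30 and 24 to 28, an alternative chosen after seeing the data. Small differences changed sign with the library left out, in 18 genes of the transfer experiment and 12 of the depletion experiment, and the cause was not tested. In the transfer experiment the log2 differences ranged over -0.12 to 0.0042 for Hmgcs1, -0.0014 to 0.11 for Mvd, -0.12 to 0.060 for Idi1, -0.017 to 0.066 for Fdft1, -0.045 to 0.037 for Sqle, -0.12 to 0.0032 for Cyp51, -0.10 to 0.089 for Tm7sf2, -0.019 to 0.14 for Msmo1, -0.043 to 0.077 for Ebp, -0.048 to 0.063 for Sc5d, -0.023 to 0.061 for Scap, -0.099 to 0.044 for Insig1, -0.063 to 0.091 for Stard4, -0.15 to 0.034 for Abcg1, -0.019 to 0.12 for Soat1, -0.069 to 0.039 for Npc1, -0.052 to 0.15 for Lcat and -0.098 to 0.0073 for Cyp46a1. In the depletion experiment they ranged over -0.050 to 0.24 for Mvk, -0.13 to 0.13 for Fdps, -0.080 to 0.087 for Fdft1, -0.093 to 0.11 for Lss, -0.0022 to 0.20 for Nsdhl, -0.027 to 0.078 for Sc5d, -0.092 to 0.032 for Scap, -0.12 to 0.12 for Stard4, -0.048 to 0.24 for Abca1, -0.095 to 0.067 for Abcg1, -0.0086 to 0.27 for Npc1 and -0.21 to 0.037 for Cyp46a1. Upper quartile rescaling gave Lss 0.012, Stard4 0.024 and Abcg1 0.00056, edgeR gave Stard4 0.037 and DESeq2 gave Stard4 0.029 in the depletion experiment, each positive where the reported value was negative, and under upper quartile rescaling 25 of the 30 genes were higher and 5 lower with CD8a antibody. Npc2 and Lcat kept an unadjusted p under 0.05 under every alternative that used all 10 libraries; without IgG2b replicate 5, 0 of 30 genes had one. Without aged T replicate 4, 1 gene of the transfer experiment, Npc2, had one. The share over all genes was not counted for either of these libraries left out. No paired analysis was possible because replicate numbers follow the order of the sample records and pair no mice. Depth and 5 or 6 mice per group limit what could be seen to differences near the printed intervals.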
